A study of Mus musculus with 4 samples.

Results

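The genes of the AMPA and kainate receptors were described by the binding sites of CTCF in adult mouse hippocampus. The 9 members are the AMPA subunit genes Gria1, Gria2, Gria3 and Gria4 and the kainate subunit genes Grik1, Grik2, Grik3, Grik4 and Grik5, named by family and not by any measured value, out of 21755 protein-coding genes in the annotation. A CTCF peak belonged to a gene when its summit lay in the gene body or within 10 kb of it, which gave 103 of the 90278 peaks that passed an irreproducible discovery rate (IDR, an estimate of the share of peaks that do not recur between replicates) of 0.05. Of these, 34 belonged to AMPA genes and 69 to kainate genes.

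CTCF was mapped by chromatin immunoprecipitation and sequencing in tissue labelled as layer of hippocampus, from male B6CASTF1/J mice aged 2 months, F1 hybrids with a C57BL/6J and a CAST/EiJ parent. They comprise 4 libraries, 2 technical ones for each of 2 biological replicates. Each replicate was a pool of 7 tissue samples, but a single donor entry is listed for both, so separate animals are not stated. There was 1 condition and 1 signal value per replicate and peak, so no difference was tested between conditions. The lists hold no read depth, and no transcripts were measured, so the tissue could not be checked against markers. In whole tissue, a site bound in fewer cells and a site bound more weakly in each cell cannot be told apart.

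AMPA and kainate receptors are tetrameric cation channels opened by glutamate. AMPA receptors, built from the GRIA subunits, carry most fast excitatory transmission in the hippocampus, and their number at the synapse changes during long-term potentiation and depression. Kainate receptors, built from the GRIK subunits, act on both sides of the synapse and are known in the hippocampus for the mossy fibre synapse onto CA3 pyramidal cells. CTCF is a zinc-finger protein that binds a directional DNA motif and, together with cohesin, anchors chromatin loops, most often between motifs that point towards each other.

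The DNA under the strongest summit of each gene is shown first, because it is the tallest site in each gene. Each line gives 30 bases, read 5′ to 3′ on the stated strand of mm10, with the best match to the 12-base CTCF core consensus in capitals. The sequences are those of the GRCm38 reference, which is based on C57BL/6J, and the CAST/EiJ allele of these hybrid mice may differ.
Gria1, chr11:57310959-57310988, minus strand: tagtgctggCCACAAGGTGGCagccttgtg
Gria2, chr3:80805529-80805558, minus strand: caggagtgaACAGCAGAGGGCagaaaacag
Gria3, chrX:41615155-41615184, minus strand: cacagaaagTCAGCAGGGGGAgcatttgtc
Gria4, chr9:4536926-4536955, plus strand: tcctaagaaCCACTAGATGGCacccaggca
Grik1, chr16:88204616-88204645, minus strand: cccttggagGCACCAGAGGGCgccagaggg
Grik2, chr10:49785002-49785031, minus strand: ttggtttcaGCACTAGGTGTTccttttaaa
Grik3, chr4:125703535-125703564, minus strand: tccgagtaaCCACTAGGGGGCacaagtgaa
Grik4, chr9:42550353-42550382, plus strand: ccagagtggACACGAGGTGGCggtgtgagg
Grik5, chr7:25036116-25036145, minus strand: ccacagaggCCAGCAGAGGGCgatgaatcc
The sites of Gria4, Grik3 and Grik5 matched the consensus exactly, and those of Gria1, Gria2 and Grik1 had 1 mismatch. The sites of Gria3 and Grik4 had 2 mismatches and that of Grik2 had 3. A match is a stretch of letters and not a measured footprint.

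All 9 genes held CTCF summits, as did 81.0% of all protein-coding genes and 97.0% of the 5000 that span 50 kb or more, but the number differed widely. Grik4 held 28 summits and Gria1 held 17, whereas Gria3 and Gria4 held 5 each. The others held between 7 in Gria2 and 13 in Grik3, with 8 in Grik1, 9 in Grik5 and 11 in Grik2. These genes are long, from 62.5 kb for Grik5 to 694 kb for Grik2, so the counts were also set per length. Over the gene body and its 10 kb flanks, Grik5 had 10.9 summits per 100 kb and ranked above 91.4% of these long genes. Grik4 had 6.27, Grik3 5.34, Gria1 5.02 and Gria2 4.95 summits per 100 kb, all between the quartiles of those long genes, 2.72 and 7.60. Grik1 with 1.93, Gria3 with 1.68, Grik2 with 1.54 and Gria4 with 1.26 summits per 100 kb lay below the lower quartile.

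The median density of the 9 genes was 4.95 summits per 100 kb, beside 4.93 for the long genes and 6.004 for all protein-coding genes. Within the families the median was 3.32 for the AMPA genes and 5.34 for the kainate genes. The AMPA genes ran from 1.26 to 5.02, so from sparse to near the long-gene median. The kainate genes ran from 1.54 to 10.9. The families were not tested against each other. The 13 summits of Grik3 became 8, or 3.29 per 100 kb, at an IDR of 0.01 and in the peak lists of replicate 1 alone, replicate 2 alone and the pooled reads. In each of these settings the medians of all 9 genes and of the kainate genes were that value, 3.29. The density of Gria1 was lower there too, at 3.54 to 4.13.

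**Figure D1:**
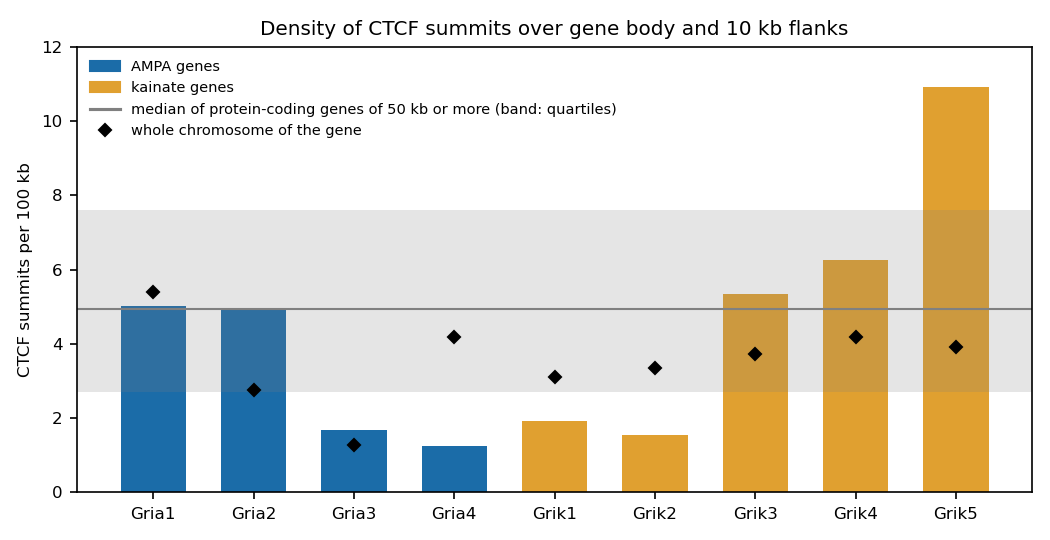
CTCF summits per 100 kb (vertical axis) over the body and 10 kb flanks of each AMPA (blue) and kainate (orange) gene, with the density of the whole chromosome as diamonds and the median and quartiles of protein-coding genes of 50 kb or more as a line and grey band; there are no error bars because the list gives 1 count per gene. Grik5 at 10.9 lies above the band, and Grik1, Grik2, Gria3 and Gria4 lie below it.

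The density of each gene was also set against that of its whole chromosome. Long genes together had 4.55 summits per 100 kb, beside 3.43 over all chromosomes. A gene above its chromosome therefore does not stand out by that alone. Gria3 lies on the X chromosome, which held 1.29 summits per 100 kb over its length, and the density of Gria3 was 1.30 times that value. Gria4 and Grik4 both lie on chromosome 9, with 4.20 summits per 100 kb over its length. Gria4 reached 0.299 times this density and Grik4 reached 1.49 times. Grik5 had 2.78 times the density of chromosome 7, Gria2 1.79 times that of chromosome 3, and Gria1, on the CTCF-rich chromosome 11, 0.930 times. For Grik3, Grik1 and Grik2 the values were 1.43, 0.623 and 0.458 times the density of their chromosomes.

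The peaks of these genes were of moderate strength. Their median signal, a score of the authors' peak caller with no stated unit, was 138, and the middle quartiles were 77.6 and 295. Over the whole list the median was 165, with quartiles of 85.3 and 464. A signal above 500 was reached by 18 of 103 peaks (17.5%, 95% exact binomial interval 10.7 to 26.2), beside 23.2% of all peaks. Every gene had at least 1 such peak: Grik4 had 5, Grik2 and Grik5 had 3 each, Gria1 had 2, and the other 5 genes had 1 each. The share of other long genes with such a peak is not given here, so this is not a trait particular to these genes. The strongest peak of a gene ranged from 589 in Gria3 to 853 in Grik4, while the gene medians ran from 77.7 in Gria4 to 286 in Grik2. Most genes therefore showed 1 to a few tall peaks among many low ones, as the map of summits along each gene shows.

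**Figure D2:**
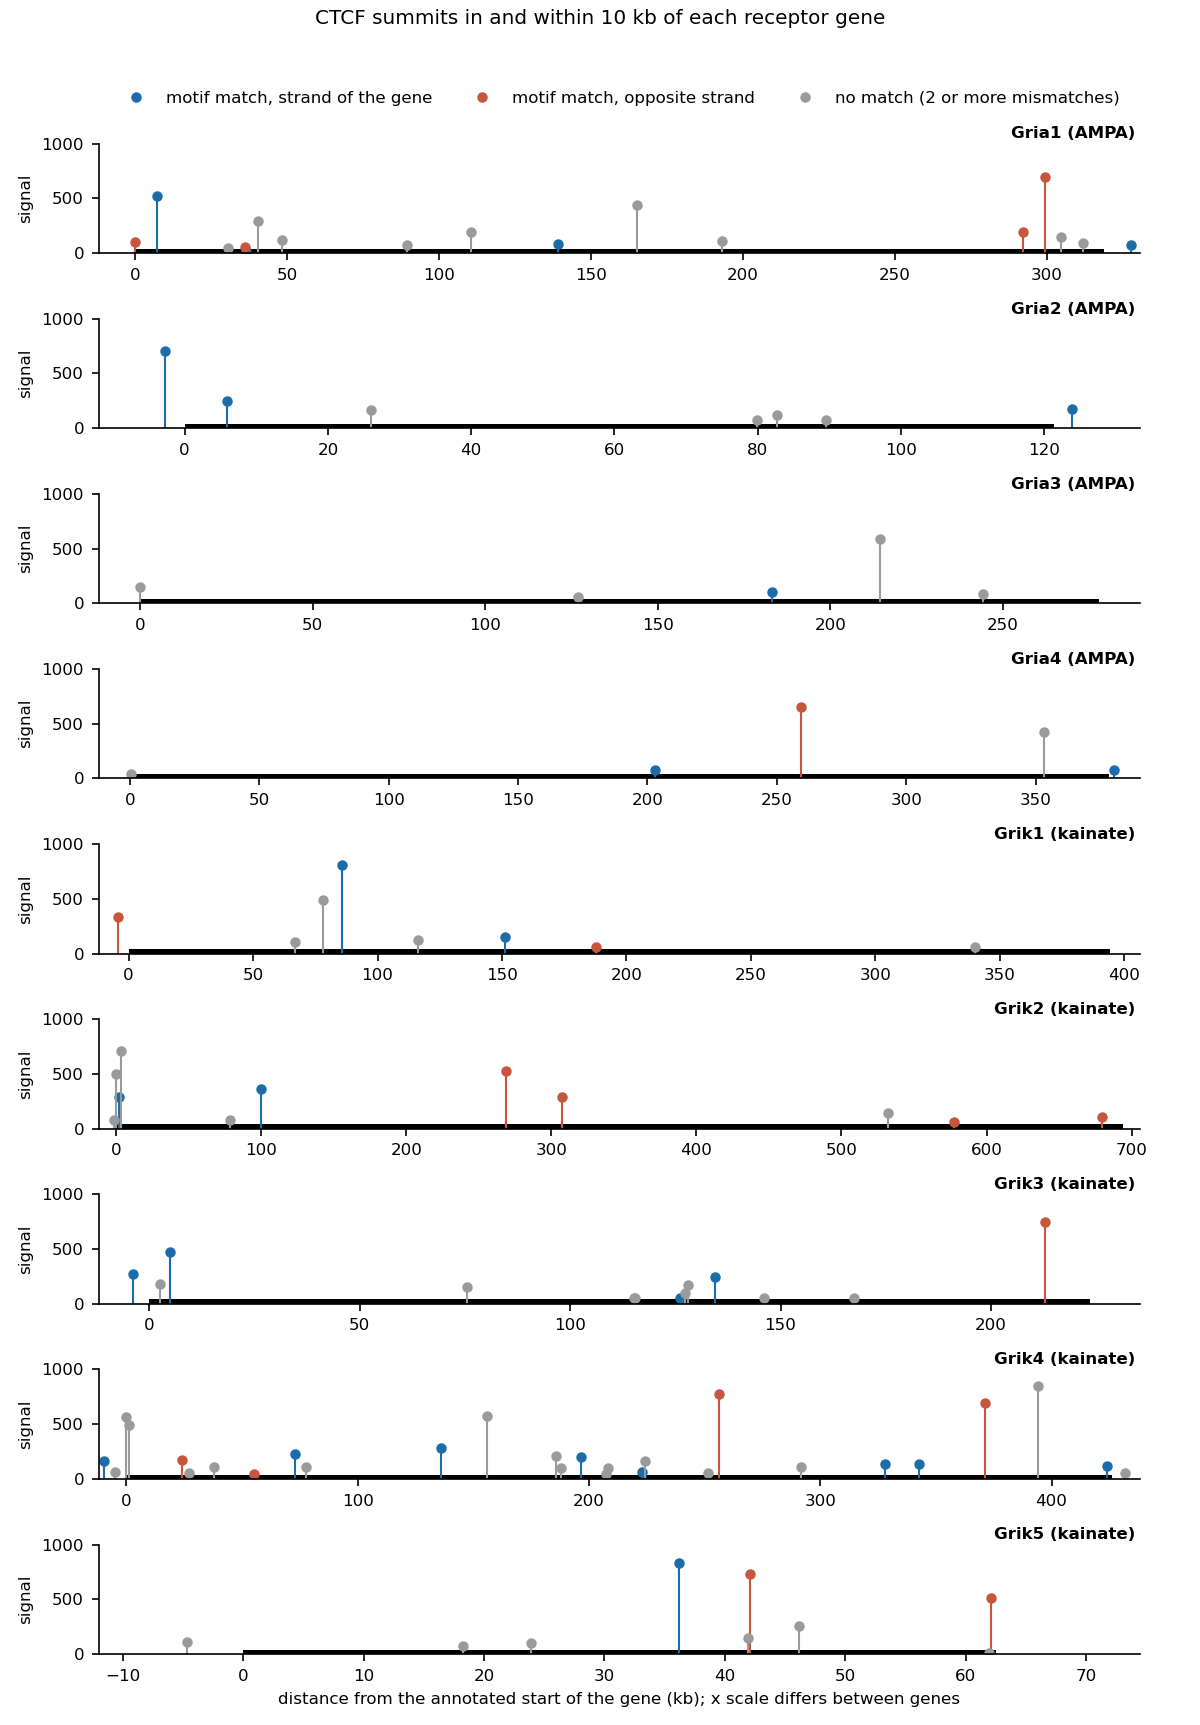
Each CTCF summit is a stem at its distance in kb from the annotated start of the gene (horizontal axis, a different scale per gene, 5′ to 3′; black bar, gene body) with its signal as height. Colour gives the orientation of the best motif match: same strand as the gene, opposite strand, or no match with at most 1 mismatch. Grik4 carries 28 stems along its whole length, and Gria4 has none between 0.586 and 203 kb.

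Most sites lay inside introns. The bodies of these long genes are mostly intron, so the rule of membership alone favours this. The intronic share of all peaks is not given here. Of the 103 summits, 84 were intronic, 4 exonic, 11 in the upstream flank and 4 in the downstream flank. The AMPA genes had 1 summit in intron 1 and the kainate genes had 23, counted on the longest coding transcript of each gene, but intron 1 is short in the AMPA genes, from 0.481 kb in Gria4 to 3.04 kb in Gria1. Among the kainate genes it is short in Grik2 (5.08 kb) and Grik5 (3.47 kb) and long in the others. It spans 233 kb in Grik1 and held 6 of its 8 summits. In Grik3 intron 1 spans 133 kb and held 8 of 13. In Grik4 intron 1 held 7 summits and intron 3 held 10. In Gria1 intron 2 spans 171 kb and held 10 of 17. Long introns could also be empty: intron 2 of Gria3 (75.6 kb) and intron 3 of Gria4 (129 kb) held no summit.

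CTCF sites at promoters, taken as summits within 1 kb of an annotated start site, were present in 5 of 9 genes: Gria1, Gria3, Gria4, Grik2 and Grik4. In the background, 38.0% of all protein-coding genes and 52.0% of those of 50 kb or more had one. When the limit was widened to 5 kb all 9 genes qualified, beside 59.6% of all protein-coding genes and 71.9% of the long ones. The 6 promoter peaks had 2 motif matches with at most 1 mismatch between them and a median GC content of 59.4% over 101 bases, while the 83 intronic peaks outside promoters had 34 matches and a median GC content of 49.5%.

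The promoter peaks differed in strength by an order of magnitude. In Grik4 the peak 377 bp upstream of the start had a signal of 568, and in Grik2 the peak 66 bp upstream had 501. Both windows were GC-rich at 64.4%. Their 101 bases around the summit, 5′ to 3′ on the minus strand on which both genes are transcribed, are given because these were the strongest promoter peaks of the family. The best consensus match is in capitals, with 2 mismatches in Grik2 and 3 in Grik4.
Grik2 promoter, chr10:49788782-49788882: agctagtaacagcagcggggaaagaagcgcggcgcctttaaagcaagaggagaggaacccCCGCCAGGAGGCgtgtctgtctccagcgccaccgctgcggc
Grik4 promoter, chr9:42944820-42944920: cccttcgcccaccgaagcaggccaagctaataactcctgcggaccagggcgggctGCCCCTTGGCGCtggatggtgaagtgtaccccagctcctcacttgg
The Grik2 window holds 9 CpG dinucleotides and the Grik4 window holds 5. In the Grik4 window the capitals are the stretch closest to the consensus, read as its reverse complement. Neither stretch meets the limit of at most 1 mismatch used for a motif match, so no direction is read from them. In Grik4 the best stretch 1 kb away also had 3 mismatches.

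Gria1 encodes GluA1, the AMPA subunit whose phosphorylation and synaptic delivery are tied to long-term potentiation. Its promoter peak (summit at 57011256 on chromosome 11) was modest, with a signal of 50.5 in replicate 1, 49.3 in replicate 2 and 102 in the joint list. The summit lay 131 bp upstream of the annotated gene start and 554 bp from the nearest start of a basic transcript. The strongest peak of the gene (57310978) lay near its other end, in intron 14, with 350 in replicate 1, 353 in replicate 2 and 699 jointly. Next came 520.5 (256 and 264) in intron 2, at 7.35 kb from the start, and 436 (213 and 223) in the same intron. In all 3 the replicates were nearly equal.

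The strongest Gria1 site sits next to a pair of exons that is a hallmark of AMPA receptor genes. The flip and flop exons are alternatives of equal length, of which a transcript includes 1, and they set how fast the channel desensitises. In the annotation Gria1 has 2 coding exons of 115 bases that no transcript uses together, at chr11:57309769-57309883 and chr11:57310608-57310722. The summit was 256 bp beyond the second of them. A like pair was found in Gria4, at chr9:4427030-4427144 and chr9:4432773-4432887, and there the nearest summit was 10219 bp away, with a signal of 428. No such pair was found for the other genes in the annotation used, so the position could be compared in these genes only.

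The 17 Gria1 summits included a run of 10 in intron 2, and the gene had a stretch of 99.3 kb without a summit, from 193 to 292 kb. A summit in this gene with an exact motif match had a signal of 190 (91.6 and 95.9), in intron 13. A pair of summits 205 bp apart in intron 2 had signals of 53.4 and 18.9 and carried motif matches on opposite strands. Both took the same replicate values, 28.7 and 39.6, so the replicate values do not separate these summits. Of 65 candidate positions ranked in the Gria1 window, 17 passed the threshold, the lowest share of the 9 genes at 26.2%.

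Gria2 encodes GluA2, the subunit that makes AMPA receptors nearly impermeable to calcium once its transcript is edited. It had no summit within 1 kb of its start. Its strongest peak (80805549 on chromosome 3) lay 2714 bp upstream, with 348 in replicate 1, 359 in replicate 2 and 709 jointly, the highest value in an AMPA gene. A second site, 252 (115 and 135), lay 5863 bp inside the gene in intron 2, and another, 179 (78.3 and 101), lay in the downstream flank. The motifs of all 3 pointed in the direction of transcription. The other 4 summits had signals of 71.1 to 163 and no match with at most 1 mismatch.

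Gria3, on the X chromosome of these male mice, encodes GluA3. Its promoter peak (41400818) had 65.6 in replicate 1, 85.2 in replicate 2 and 151 jointly, at 310 bp from a start. The next 127 kb, 45.7% of the gene body, held no summit. The strongest peak (41615174, intron 11) had 276 in replicate 1, 317 in replicate 2 and 589 jointly, and the next below the promoter peak, 103 (49.7 and 48.2), lay in intron 5. Of the 5, only this intron 5 site had a motif match with at most 1 mismatch. The 5 summits became 3 in the list of replicate 2 alone and in the pooled-read list.

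Gria4 encodes GluA4, which in the adult hippocampus is known mainly from fast-spiking interneurons. It was the sparsest gene of the family. Its strongest peak (4536934 on chromosome 9, intron 5) matched the consensus exactly and had 334 in replicate 1, 319 in replicate 2 and 651 jointly. A peak in intron 14 had 428 (199 and 230), and the other 3 had 77.7 (32.4 and 44.5, downstream flank), 77.5 (30.1 and 46.0, intron 4) and 42.7 (19.7 and 23.3). The last is the promoter peak (4795648), 129 bp from a start, and it was the member peak closest to the threshold. Its deposited IDR score was 549, where 540 stands for an IDR of 0.05, and it overlapped no peak of the other 3 lists. Without it Gria4 had no promoter site, as at an IDR of 0.01 and in each of the other lists. The count of 5 became 3 at an IDR of 0.01 and 2 in the list of replicate 1 alone. A stretch of 202 kb from 0.586 to 203 kb, 53.5% of the body, held no summit.

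The kainate genes fall into a group whose subunits can form channels alone, GluK1 to GluK3 from Grik1, Grik2 and Grik3, and a group whose subunits bind agonist with high affinity and need a partner of the first group, GluK4 and GluK5 from Grik4 and Grik5. The higher densities lay in the second group, with 6.27 summits per 100 kb in Grik4 and 10.9 in Grik5, beside 1.93, 1.54 and 5.34 in Grik1, Grik2 and Grik3. With 3 genes against 2, this order was not tested.

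Grik1 had no promoter summit. Its nearest one lay 4150 bp from a start, upstream of the gene, with 169 in replicate 1, 169 in replicate 2 and 334 jointly. The strongest (88204651 on chromosome 16) lay in intron 1 with 400, 413 and 812, above 97.1% of all peaks or equal to them, and a second in the same intron, 7396 bp away, had 489 (243 and 245). All 3 tall sites therefore lay upstream of the gene or in its first intron, and beyond intron 1 the gene held 1 summit. That summit (87950263, intron 8) was 122 bp from a coding exon and had a signal of 62.9 (27.6 and 32.9). A stretch of 152 kb before it held none.

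Grik2 encodes GluK2, the main kainate subunit at mossy fibre synapses. It held a cluster of 4 summits around its start, from 1221 bp upstream of the gene to intron 1. The promoter peak (49788832 on chromosome 10) had 246 in replicate 1, 255 in replicate 2 and 501 jointly, and it lay 5 bp from the annotated start of Gm48123. In intron 1, 1848 bp inside the gene, an exact motif match carried 293 (151 and 146). The strongest peak (49785045) followed in the same intron with 362, 344 and 705, although its best match had 3 mismatches. Further in, a site in intron 7 had 529 (258 and 272). The longest empty stretch, 225 kb, ran from 307 to 532 kb. With 11 summits, Grik2 had the highest median signal of the 9 genes, 286.

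Grik3 encodes GluK3. Its nearest summits to the start lay 2619 bp inside the gene with 177 (79.8 and 98.2) and 3935 bp upstream with 275 (138 and 137). The strongest peak (125703549 on chromosome 4, intron 13) matched the consensus exactly and had 349 in replicate 1, 395 in replicate 2 and 744 jointly. The second had 469 (226 and 242), in intron 1. Between these lay many weak sites: 5 of the 13 summits overlapped no peak of the other 3 lists, and the remaining 8 were in all 3.

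Grik4 encodes GluK4, which in the hippocampus is known mainly from CA3 and the dentate gyrus. It held the most summits of the family and the strongest one (42550366 on chromosome 9, intron 15), which lay 41 bp from a coding exon. That peak had 413 in replicate 1, 442 in replicate 2 and 853 jointly, above or equal to 99.0% of all peaks. A second peak (42688349) had 376, 396 and 773 and lay in intron 3, 252 bp from a coding exon. The third, an exact match in intron 13 (42573331), had 335, 361 and 695. The promoter peak (42944870) had 255, 314 and 568, with replicate 2 higher. A second annotated start also had a site: a summit in the 5′ untranslated part of exon 3 (42808610), 89 bp from that start and 36 bp from coding sequence, had 120, 159 and 282. Its motif, an exact match on the strand of the gene, is shown because it is the only exact match among the promoter peaks.
Grik4 second start, chr9:42808586-42808615, minus strand: atgcccagaCCAGCAGAGGGCtccatgagg
At the far end of Grik4, a summit in the 3′ untranslated part of exon 21 (42520716), 116 bp from coding sequence, had 44.6, 76.3 and 122. The longest stretch without a summit was 58.3 kb, 13.7% of the body, the smallest share of the 9 genes. Of the 28 summits, 7 overlapped no peak of the other 3 lists.

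Grik5 encodes GluK5, the more widely expressed of the high-affinity subunits. It is the shortest gene of the family and the densest in CTCF. With 1 summit per overlapping group its 9 summits became 7, or 8.49 per 100 kb, still above the 6.27 of Grik4. No summit lay within 1 kb of its start. The nearest one lay 4750 bp from it with 106 (49.9 and 59.0), and that summit was 163 bp from the start of the neighbouring gene Zfp574. The first 18.3 kb of the gene body were empty. Intron 12, 22.8 kb long, held 4 summits, among them the strongest (25036134 on chromosome 7), with 406, 428 and 831 and an exact match. A second tall peak 5877 bp away (25030257) had 369, 364 and 733, and its motif faced that of the first. A weaker summit 201 bp from this second one, with a signal of 145, shared its peak coordinates. The last exon held another tall peak (25010241), in the 3′ untranslated part 131 bp from coding sequence, with 243, 269 and 515. Just outside the 10 kb limit, at 10350 bp upstream, another summit had a signal of 621. With a 50 kb flank Grik5 held 28 summits, or 17.2 per 100 kb.

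The pairing of the last-exon summits in Grik5 shows a limit of the replicate values. A weaker summit in the coding part of the same exon (25010448) shared its peak coordinates with the summit 207 bp away and took the same replicate 2 value, 269. Its own signal was 14.4, the lowest of all member peaks, with 24.5 in replicate 1. It was the only one of 103 summits inside coding sequence. In all, 6 of 103 summits (5.83%) lay in or within 250 bp of a coding exon, in Grik1, Grik4 and Grik5, beside 9.90% of all peaks, and no AMPA summit did. The nearest AMPA summit was the strongest Gria1 site at 256 bp, just past this limit.

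Motif matches were about as frequent as elsewhere. Within 50 bp of the summit, 45 of 103 peaks had a match with at most 1 mismatch (43.7%, 95% exact binomial interval 33.9 to 53.8), beside 50.3% of all peaks. An exact match was present in 8 (7.77%, interval 3.41 to 14.7), beside 10.02%. In windows 1 kb away, 1 of the 103 had a match with at most 1 mismatch. Peaks with a match had a median signal of 199 and those without 107, and over the whole list these medians were 238 and 126. The families differed in this: in kainate genes the medians were 262 with a match and 106 without, while in AMPA genes they were 103 and 122. The AMPA values rest on 15 and 19 peaks, and no test was made. Among the 18 peaks above 500, 12 had a match (66.7%), beside 69.3% of all peaks of that strength.

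**Figure D3:**
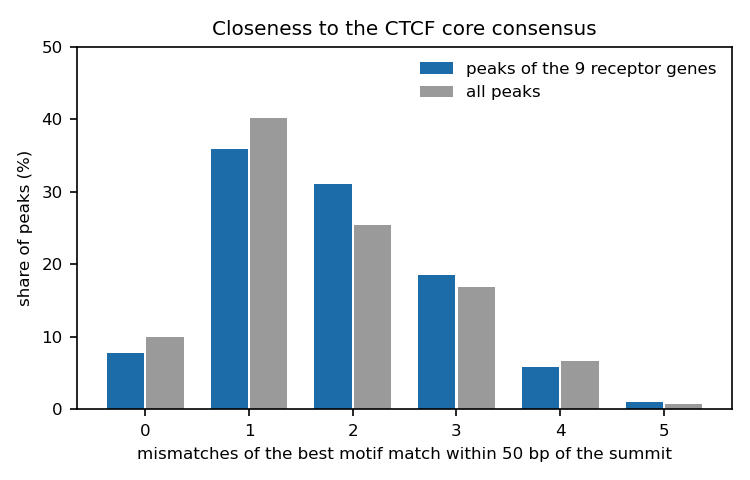
Share of peaks in percent (vertical axis) by the number of mismatches of the best CTCF core match within 50 bp of the summit (horizontal axis), for the 103 receptor gene peaks (blue) and all 90278 peaks (grey). Among the receptor gene peaks, 7.77% had no mismatch and 35.9% had 1, beside 10.02% and 40.3% of all peaks.

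Read from the sequence side, most exact matches in these genes were occupied, as over the chromosomes. The windows of the 9 genes held 9 exact copies of the core consensus, and 8 of them had a summit within 50 bp. Over the chromosomes, 71.6% of 12728 exact copies did. With only 9 copies in these genes, a difference from that share was not tested. The unoccupied copy lay in Grik4 and had no candidate peak of any rank. The 4 exact matches not printed above lie in Gria1, Grik2 and Grik4, at summits with signals of 190, 293, 286 and 695, and are shown to compare the letters at the positions where the consensus allows more than 1 base.
Gria1, intron 13, chr11:57303783-57303812, minus strand: ctgcagaggCCAGCAGAGGGCactgtatct
Grik2, intron 1, chr10:49786891-49786920, minus strand: gttcatgccCCAGCAGGTGGCagctaacta
Grik2, intron 7, chr10:49481635-49481664, plus strand: ccacagctaCCAGTAGAGGGCaacagatag
Grik4, intron 13, chr9:42573311-42573340, plus strand: cttgaaaccCCACTAGAGGGCgcacacccc
The core of the Gria1 site is identical to that of the strongest Grik5 site and of the Grik4 second start, while their signals were 190, 831 and 282.

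The direction of the motifs was mixed. Of the 45 matches, 27 lay on the strand of the gene and 18 on the other. Between neighbouring matches within a gene there were 36 pairs, of which 10 faced each other, 8 faced apart and 18 pointed the same way. The shares over all neighbouring matches of the list are not given here, so no orientation is read as frequent in these genes. Grik4 alone gave 3 facing and 3 divergent pairs and 5 in the same direction. In Grik2, 4 of 5 pairs pointed the same way. The tall pair of Grik5 faced each other over 5.88 kb, and in Grik3 the exact site in intron 13 faced a site in intron 2 with a signal of 249 across 78.5 kb. No contact between sites was measured.

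The replicates ranked these sites alike, but the list keeps only peaks that recur between replicates, so agreement was partly built in. Across the 103 peaks, the log2 signals of the replicates had a Pearson r of 0.953 and the signals a Spearman rho of 0.942. Over the whole list both were 0.953. No p is given because peaks of the same libraries are not independent. The log2 ratio of replicate 2 over replicate 1, less the median over all peaks, had a median of 0.03 and an SD of 0.40 over the 103 peaks. Only 3 peaks lay more than 2 SD of their signal decile from 0, beside 3.99% of all peaks. The largest ratio, 3.37, belonged to the shared Grik5 exon peak described above. Next were a Gria1 peak in intron 5 (57204542) at 0.75, with 41.6 in replicate 1 and 74.6 in replicate 2, and the Grik4 exon 21 peak at 0.68. The lowest were -0.56 in Grik5 (25048447; 57.0 and 41.2), -0.53 in Grik4 (42906536; 60.6 and 44.8) and -0.32 in Grik1 (88174150; 68.5 and 58.5). Apart from the shared peak, these extremes had joint signals of 101 to 125.

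**Figure D4:**
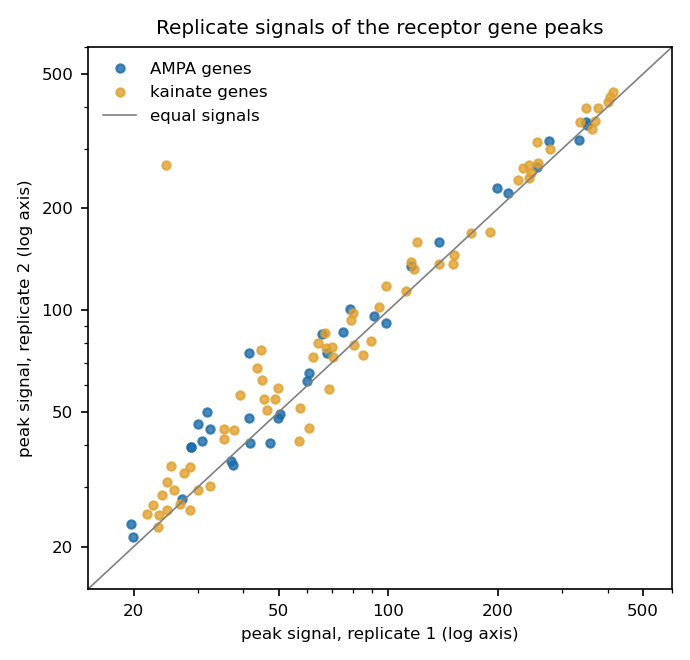
Signal of each receptor gene peak in replicate 1 (horizontal) and replicate 2 (vertical), both on log axes, with AMPA peaks in blue, kainate peaks in orange and the line of equal signals. The orange point far above the line, at 24.5 and 269, is the Grik5 exon peak that shares its replicate 2 value with a neighbouring summit.

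Support from the other deposited lists mostly followed the signal, with exceptions at the lowest summits. The weakest, 14.4 in the last exon of Grik5, overlapped all 3 lists but shared its coordinates with the summit of 515. The next, 18.9 in Gria1, overlapped the replicate 2 list only. A peak of the list from replicate 1 alone overlapped 75 of 103 (72.8%), beside 81.1% of all peaks. The list of replicate 2 alone overlapped 77 (74.8%), beside 81.2%, and the pooled-read list overlapped 74 (71.8%), beside 77.7%. All 3 lists supported 67 (65.0%), beside 72.4%, and none supported 20 (19.4%), beside 12.1%. The 20 had signals of 42.7 to 83.1. All 18 peaks above 500 were in all 3 lists, as were 19542 of the 20918 peaks above 500 in the whole list. An IDR of 0.01 was met by 87 (84.5%), beside 89.4%. Near the threshold, the lowest members after the Gria4 promoter peak had IDR scores of 563, in Gria1 and Grik4, and the highest candidates that failed had 512 in Grik4, 510 in Gria1 and 505 in Grik2. Of 279 candidates ranked in the windows of the 9 genes, 103 passed (36.9%), beside 44.3% over the whole ranked list, and the strongest that failed had a signal of 72.2, in Grik5.

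Genes whose products work with these receptors were read in the same way at their promoters. A summit lay within 1 kb of a start in 20 of 40 such genes, beside the 38.0% of all protein-coding genes. The auxiliary subunits of AMPA receptors, which set their gating and surface delivery, had 2 of 12, and Cacng2, which encodes stargazin, had none. Of the kainate auxiliary genes Neto2 had one, with 258 in replicate 1, 274 in replicate 2 and 533 jointly, while Neto1 had none. Among assembly and trafficking partners 5 of 10 had one. The strongest was at Olfm1, with 297, 301 and 597, and Frrs1l had none. Adhesion and clustering partners had 7 of 9. They included Lrrtm3, a synaptic adhesion protein gene, with 250, 237 and 486, while Lrrtm2 had no summit in its body or flanks. The scaffold genes had 2 of 3, without Dlg4, the gene of PSD-95. Of the editing enzymes, Adar had one with 277, 310 and 588, while Adarb1, whose product edits the Gria2 transcript at the site that sets calcium permeability, had none within 1 kb. The roles hold few genes each, and no role was tested.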

How the data were processed

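CTCF peaks came from 4 libraries of 2 biological replicates. The authors deposited ranked and thresholded peak lists for each replicate, for pooled reads and between replicates. The technical libraries of a replicate share 1 list. The peak signal and the IDR score are each a score as deposited by the authors, and the scale of the signal is not stated. Per the labels, coordinates are on mm10. What aligner and peak caller were run is not given in the sources used.

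The conservative between-replicate list (IDR 0.05, chromosomes 1 to 19 and X) was the main list, and every summit in it was counted. Replicate signals came from the ranked between-replicate list: 78.1% of the peaks in its first column set recurred in the ranked list of replicate 1 and 80.04% of those in its second set in the ranked list of replicate 2, with none crossed. Genes, transcripts and starts came from the GENCODE M21 basic annotation, and sequences from the RefSeq copy of GRCm38, the assembly that mm10 names. Matches to the 12-base CTCF core consensus, on either strand, had at most 1 mismatch and lay within 50 bp of the summit. Overlap of lists needed 1 bp. The 95% intervals of shares are exact binomial ones (Clopper-Pearson), which hold counting error alone. Replicate log2 ratios are replicate 2 over replicate 1, less the median over all peaks.

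The members and lists were chosen with earlier results of these data known. Named peaks were the promoter peaks, the 3 strongest of each gene, those within 250 bp of a coding exon and the 3 highest and 3 lowest replicate ratios. Named partner genes were the 5 with the strongest promoter peak and, per role, the first by alphabet without one. Not every gene that the rule names is reported here. Other peaks and sequences were chosen after their values were seen. Alternatives were an IDR of 0.01, each other list, other flank, promoter, window and mismatch limits and 1 summit per overlapping group. Motif search, counting and overlap were tested on simulated data. Tools were pandas 2.3.3, numpy 2.4.6 and scipy 1.17.1 under Python 3.11.15, with figures from matplotlib 3.10.9.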

Additional observations from a re-analysis of the deposited data

Results flagged for a closer look

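The list of replicate 2 alone, which was not used for the main counts, held 5 summits in the windows of these genes that overlapped no peak of the main list, in Gria1, Gria4, Grik2, Grik4 and Grik5, with signals of 30.5 to 44.0. The list of replicate 1 alone held 2, in Gria2 and Grik5, and the pooled-read list held 1, in Grik4. There were no control samples to compare them with.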

How the results depend on the processing

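The total of 103 summits ranged from 76 in the pooled-read list to 133 with a 50 kb flank, and was 79 in the list of replicate 1 alone and 84 in that of replicate 2 alone. The median density of the 9 genes and that of the kainate genes were both 3.29 summits per 100 kb at an IDR of 0.01, in the pooled-read list and in either replicate list alone. The long-gene median was 4.31, 3.78, 4.09 and 4.18 in the same order. With a promoter limit of 5 kb, all 9 members and 35 of 40 partner genes had a summit. The share was 59.6% of all protein-coding genes and 71.9% of those of 50 kb or more. The motif share was 7.77% for exact matches and 74.8% with up to 2 mismatches. The other 52 values under alternatives, over the counts, medians, motif shares and replicate ratio, stayed within 1.5 times the main value or within its spread. Each single-replicate list has its own threshold, so a count in it is not the main list less a replicate. No paired analysis was possible because the replicates were pools of 1 condition with no contrast. Without read depth, the precision of a single peak cannot be given.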
